A study of Mus musculus with 8 samples.

Results

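The genes of cytochrome P450 families 1 to 3 were followed in liver RNA of mice with and without C2-AKT. They were chosen by symbol alone, as the rows named Cyp followed by a family number of 1, 2 or 3, a subfamily letter and a gene number, leaving out names ending in -ps. This gave 61 of the 45777 genes in the deposited table, in 16 subfamilies. The table annotates Cyp2d13 as a transcribed pseudogene and Cyp2j7 as a pseudogene, and the other 59 as protein-coding. C2-AKT mice carried the ROSA26-C2-AKT allele together with Alb-Cre. The albumin promoter that drives Cre is active in hepatocytes, so C2-AKT, a form of the kinase AKT, is switched on in those cells. Control mice are labelled wild type and C2-AKT (-/-), and whether they carried Cre is not stated in the labels. All mice were C57BL6 males, kept on a standard diet until 8 weeks of age and then on a high-fat diet for 10 weeks. Polyadenylated RNA was sequenced from 4 C2-AKT and 4 control livers, named here by the replicate numbers 2 to 5 of their titles. Since the labels do not say that each library came from its own mouse, the spread behind each p-value may be technical.

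Cytochromes P450 of families 1 to 3 are heme enzymes of the endoplasmic reticulum that insert oxygen into drugs, foreign chemicals, steroids, fatty acids and retinoids. They take electrons from the reductase POR. Hepatocytes express them at high levels, many of them around the central vein, and control them through the receptors AHR (Cyp1), CAR (Cyp2b) and PXR (Cyp3a). In rodents several are also set by sex through the pulses of growth hormone. The mouse genome holds many recent copies of these genes in clusters, so reads can be hard to assign to a single copy.

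Total estimated counts per library ran from 51423418 to 63784523. The 10 hepatocyte markers were all detected and together held up to 10.1% of the counts in C2-AKT and 9.61% in control libraries. C2-AKT replicate 5 stood apart, because 10 pancreatic acinar markers summed to 93400 CPM (a gene's counts scaled to a common library total) there, against at most 27.4 CPM in the other 3 C2-AKT libraries and 7.47 to 15.2 CPM in control libraries. None of the 10 was at 0 in every library. The 6 islet markers summed to 62.2 CPM in that library and to 0 in the other 7. Genes kept by the count filter held 82.8% of its counts and at least 99.9% in the others, so its TPM values (deposited levels scaled to transcript length and library) sit lower for liver genes in general. The same holds for CPM of all counts, used for the sums of marker and gene lists. Differences of single genes between groups are given in CPM with TMM scaling over the kept genes, and TPM is used to compare genes and for ratios within a library. The kept genes still include 2 of the 10 acinar markers, Cela1 and Cela2a. The part of the pancreatic transcripts in single results was not tested beyond leaving that library out.

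No member passed the test between C2-AKT and control livers. Of the 61 members, 46 had enough counts to be tested, and 0 of these 46 had an adjusted p under 0.05 in edgeR's quasi-likelihood test (Benjamini-Hochberg over 15686 genes), where 0.0255% of all genes tested did. The lowest adjusted p of any member was 0.181, for Cyp2a22. At an unadjusted p under 0.05 there were 13 members, 28.3% of those tested, against 5.13% of all genes tested. Values were higher in C2-AKT livers for 6 (against 2.46% of all genes) and lower for 7 (against 2.67%), and several are neighbouring copies whose values are not independent. Without C2-AKT replicate 5 the 13 became 8 (4.97% of all genes), 4 higher (2.16%) and 4 lower (2.8%). With the ending of the sample titles as a term there were 12 (8.75% of all genes), 6 higher (4.12%) and 6 lower (4.63%). C2-AKT replicate 5 alone has its title ending, so that fit takes no group difference from it. Titles ending in _1 belong to C2-AKT replicates 3 and 4 and control replicates 2 to 4. Among the libraries with titles ending in _1 there were 13 of 47 (7.83% of all genes), 9 higher (3.52%) and 4 lower (4.31%). The number with lower values, 7 with all libraries, was 3 without C2-AKT replicate 4 or control replicate 4. It was 4 without C2-AKT replicate 3 or control replicate 5. These counts do not always hold the same members. Cyp2u1, not among the 13, entered without control replicate 4 (unadjusted p = 0.0333 in edgeR). With the title ending, Cyp2c50 (0.0251) and Cyp3a13 (0.0174) entered. Cyp2a4, Cyp2a5, Cyp2a22, Cyp2c70 and Cyp2d40 were under 0.05 whichever 1 library was left out, and each of the other 8 was not under 0.05 in at least 1 such fit. DESeq2 called 1 of 51 members, Cyp2a22 with higher values, where it called 0.309% of all genes, 0.157% higher and 0.152% lower. The median log2 fold change over the 46 members was 0.03, against -0.01 over all genes tested, and 26 of the 46 were positive, against 48.1% of all genes.

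**Figure D1:**
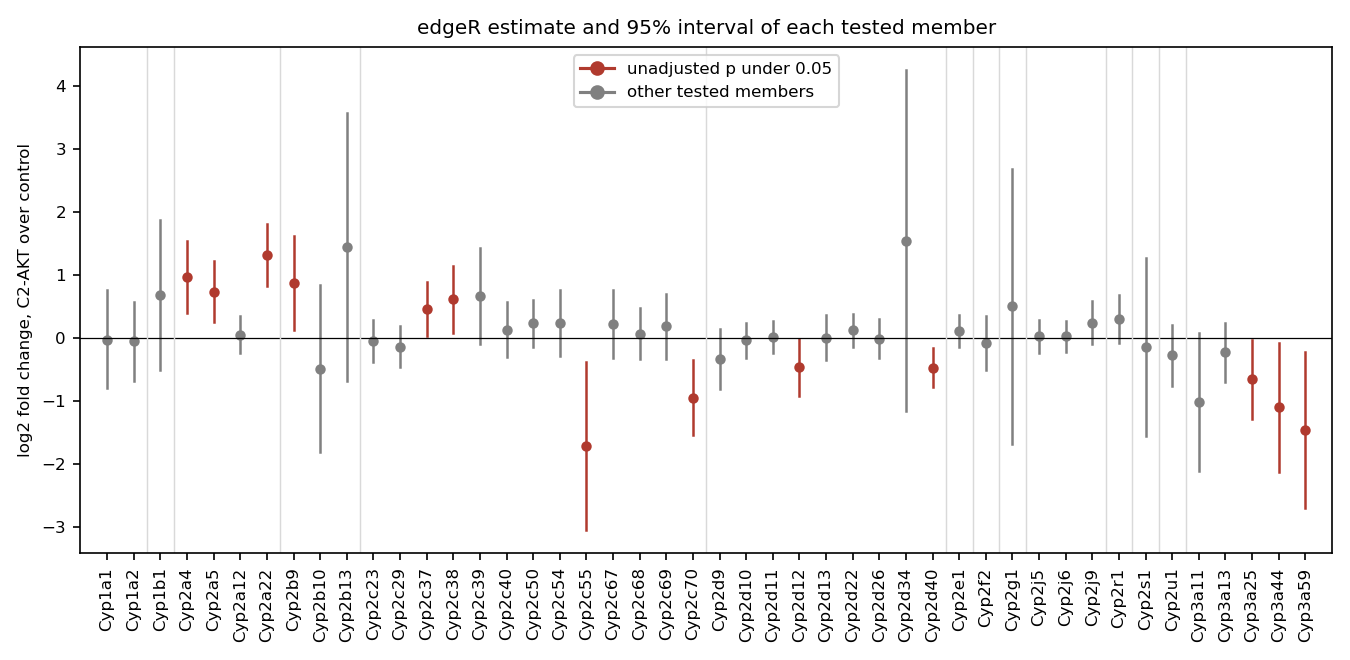
Log2 fold change of C2-AKT over control livers for the 46 tested members, in order of subfamily, from edgeR, with bars for the 95% interval (4 libraries a group). The 13 members in red had an unadjusted p under 0.05: Cyp2a4, Cyp2a5, Cyp2a22, Cyp2b9, Cyp2c37 and Cyp2c38 lie above 0, and Cyp2c55, Cyp2c70, Cyp2d12, Cyp2d40, Cyp3a25, Cyp3a44 and Cyp3a59 lie below it.

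The summed TPM of the family was 15144 to 20396 in C2-AKT livers and 16694 to 20322 in control livers, so the groups overlapped. C2-AKT replicate 5 was the lowest of the 8. In TMM-scaled CPM the sum was 19906 ± 1513 CPM in C2-AKT and 19921 ± 2127 CPM in control livers (SD, n = 4 each). Cyp2e1, which oxidizes ethanol, acetone and other small molecules around the central vein, took 41.6% to 52.4% of the summed TPM of the family, depending on the library. It averaged 9446 ± 392 CPM in C2-AKT and 8718 ± 924 CPM in control livers (SD, n = 4 each), with a log2 fold change of 0.12 (95% interval -0.14 to 0.37; edgeR adjusted p = 0.9999).

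Levels spanned many orders of magnitude. Over all 8 libraries the mean TPM was above 100 for 24 members, from 1 to 100 for 16 and under 1 for 21. After Cyp2e1 at 8747 TPM came Cyp2d9 (1065), a male-predominant steroid hydroxylase of mouse liver, Cyp2d26 (1030), Cyp3a11 (912), the main mouse member of the drug-metabolizing Cyp3a group, and Cyp2f2 (824), an enzyme of periportal hepatocytes. Next stood Cyp2c50 (652), Cyp2d10 (616), Cyp2a12 (585), Cyp2a5 (462), Cyp2c29 (442), Cyp3a25 (394), Cyp2j5 (336), Cyp2c67 (284), Cyp2c37 (284) and Cyp1a2 (233), in TPM. The spread between libraries of one member was as large as the step to its neighbour for many of them: Cyp3a11 ranged from 398 to 2213 TPM and Cyp2f2 from 446 to 1020 TPM. The other end of the range held members with few or no counts. The 15 members not tested included 9 with no count in any library, which allows up to 0.0470 to 0.0583 CPM per library: Cyp2b19, Cyp2b23, Cyp2c66, Cyp2j7, Cyp2j11, Cyp2j12, Cyp2j13, Cyp2t4 and Cyp2w1. The other 6, Cyp2c65, Cyp2j8, Cyp3a16, Cyp3a41a, Cyp3a41b and Cyp3a57, had 34 to 80 counts over all 8 libraries and reached at most 0.531 TPM.

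**Figure D2:**
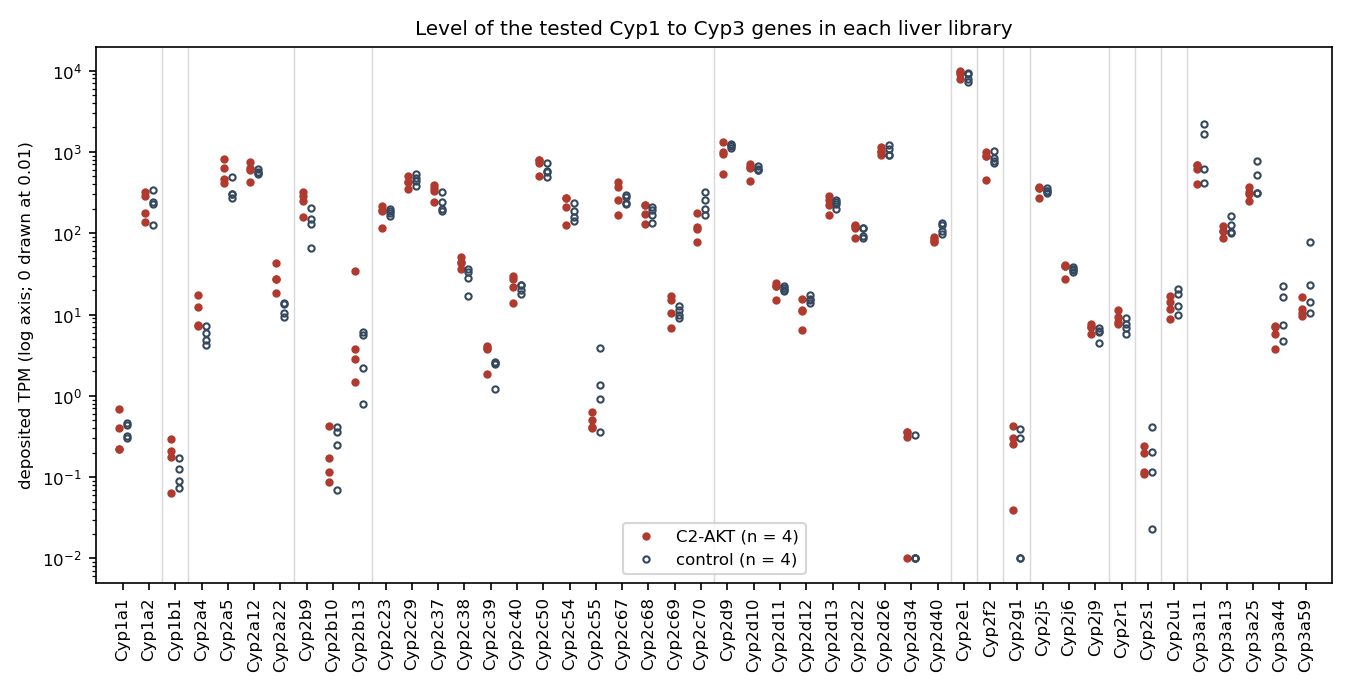
Deposited TPM of the 46 tested members in each library on a log axis, in order of subfamily, with C2-AKT libraries as filled red points left of control libraries as open points. Cyp2e1 lies at 7333 to 9785 TPM in all 8 libraries, and the control points of Cyp3a11 spread further than those of its neighbours.

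Of the 4 Cyp2a genes, which hydroxylate coumarin, nicotine and steroids, Cyp2a4, Cyp2a5 and Cyp2a22 had an unadjusted p under 0.05 and Cyp2a12 did not. They lie on chromosome 7 (GRCm38) in the order Cyp2a4 (26307192 to 26315088), Cyp2a5 (26835339 to 26843264), Cyp2a22 (26931631 to 26939413) and Cyp2a12 (27029090 to 27036818). They form 2 pairs by the sequence before their RefSeq starts, and the RefSeq start of Cyp2a22 lies inside the interval the table gives. In the last 150 aligned bases, Cyp2a4 and Cyp2a5 differed at 3 positions and Cyp2a22 and Cyp2a12 at 8. Over the 250 bases compared, Cyp2a4 and Cyp2a5 differed at 4 of 249 aligned positions (98.4% identical). Cyp2a22 and Cyp2a12 differed there at 27 of 242 (88.8% identical, 3 of them gaps), so the stretch printed is the closer part of that pair. The sequences are printed to show how close the copies whose values follow are in this stretch. They are from RefSeq (GRCm38.p6), at chr7:26307042-26307191 (plus strand), chr7:26835188-26835337 (plus), chr7:26939387-26939536 (minus) and chr7:27028929-27029078 (plus), 5′ to 3′, with capitals at the positions that differ within a pair.
Cyp2a4: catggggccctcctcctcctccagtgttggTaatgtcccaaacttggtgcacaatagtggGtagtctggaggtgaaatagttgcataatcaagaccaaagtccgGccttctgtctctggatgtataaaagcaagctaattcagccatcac
Cyp2a5: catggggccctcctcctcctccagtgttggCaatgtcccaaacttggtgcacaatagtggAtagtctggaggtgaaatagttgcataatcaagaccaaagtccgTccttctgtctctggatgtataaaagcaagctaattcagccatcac
Cyp2a22: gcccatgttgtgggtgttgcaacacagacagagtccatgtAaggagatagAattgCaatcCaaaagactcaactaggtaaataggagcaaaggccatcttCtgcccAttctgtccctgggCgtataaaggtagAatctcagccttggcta
Cyp2a12: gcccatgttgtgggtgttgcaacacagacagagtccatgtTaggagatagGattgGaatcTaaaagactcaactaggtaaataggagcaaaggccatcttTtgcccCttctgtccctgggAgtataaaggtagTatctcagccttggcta
Each of these 4 windows holds TATAAA near its end. Within the 300-base windows of the RefSeq table, which run from 250 bases before to 50 bases after the start and were found for 52 of the 61 members, TATAAA on either strand was in 28 of 52 members (53.8%) and in 15.7% of all 27025 genes.

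Cyp2a22 had the smallest p of the family. It measured 21.6, 47.8, 27.1 and 30.1 CPM in C2-AKT replicates 2 to 5, against 12.3, 14.9, 11.0 and 12.6 CPM in control replicates 2 to 5. All 4 C2-AKT libraries lay above all 4 control libraries. Its log2 fold change was 1.32 ± 0.22 (SE; 95% interval 0.83 to 1.81), and in edgeR's quasi-likelihood test its unadjusted p was 0.000139 and its adjusted p = 0.181. It was called by DESeq2 (adjusted p = 9.29e-06) and by edgeR without C2-AKT replicate 2 (adjusted p = 0.0368, where 0.107% of all genes were called, 0.00628% higher). Without C2-AKT replicate 3, its highest library, the log2 fold change was 1.05. Over all alternatives the adjusted p ran from 9.29e-06 to 0.681.

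Cyp2a12, a steroid hydroxylase paired with Cyp2a22 above, measured 616, 692, 557 and 473 CPM in C2-AKT replicates 2 to 5, against 518, 597, 525 and 600 CPM in control replicates 2 to 5. The groups overlapped, with a log2 fold change of 0.06 (95% interval -0.24 to 0.36). The ratio of the pair within a library does not depend on how libraries are scaled. Cyp2a22 stood at 3.08, 5.79, 4.35 and 6.52 TPM per 100 TPM of Cyp2a12 in C2-AKT livers, against 2.51, 2.21, 1.93 and 1.65 in control livers, with no overlap. In TPM, C2-AKT replicate 5, where pancreatic markers were high, had the highest ratio of the 8. In CPM, C2-AKT replicate 3 had the highest. In 100-base windows of their GENCODE transcripts, the share of windows of Cyp2a22 found letter for letter in another gene was 3.98%, all of it in Cyp2a12.

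Cyp2a5, the mouse coumarin hydroxylase, measured 495, 772, 565 and 485 CPM in C2-AKT replicates 2 to 5, against 268, 296, 491 and 328 CPM in control replicates 2 to 5. Control replicate 4 lay just above the lowest C2-AKT library, and the other 3 control libraries lay below all C2-AKT libraries. The log2 fold change was 0.74 ± 0.22 (SE; unadjusted p = 0.00643, edgeR adjusted p = 0.762). Cyp2a4, a steroid hydroxylase, followed the same pattern at a far lower level, with 7.58, 16.6, 11.1 and 8.48 CPM in C2-AKT livers and 4.14, 5.83, 7.15 and 5.20 CPM in control livers. Its groups did not overlap, as was the case for 3 of the 46 members (Cyp2a22, Cyp2a4 and Cyp2d40) and for 2.98% of all genes tested (1.35% higher and 1.63% lower in C2-AKT livers). The log2 fold change was 0.97 ± 0.26 (SE; unadjusted p = 0.00353, edgeR adjusted p = 0.710).

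Reads may be shared between Cyp2a4 and Cyp2a5, so the value of Cyp2a4 alone is uncertain. The ratio stayed between 1.45 and 2.15 TPM of Cyp2a4 per 100 TPM of Cyp2a5 in all 8 libraries, and 11.2% of the 100-base windows of Cyp2a4 were found in Cyp2a5. C2-AKT replicate 3 was the highest library for all 4 Cyp2a genes. The subfamily summed to 1206 ± 227 CPM in C2-AKT and 924 ± 95.9 CPM in control livers (SD, n = 4 each), with overlap.

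**Figure D3:**
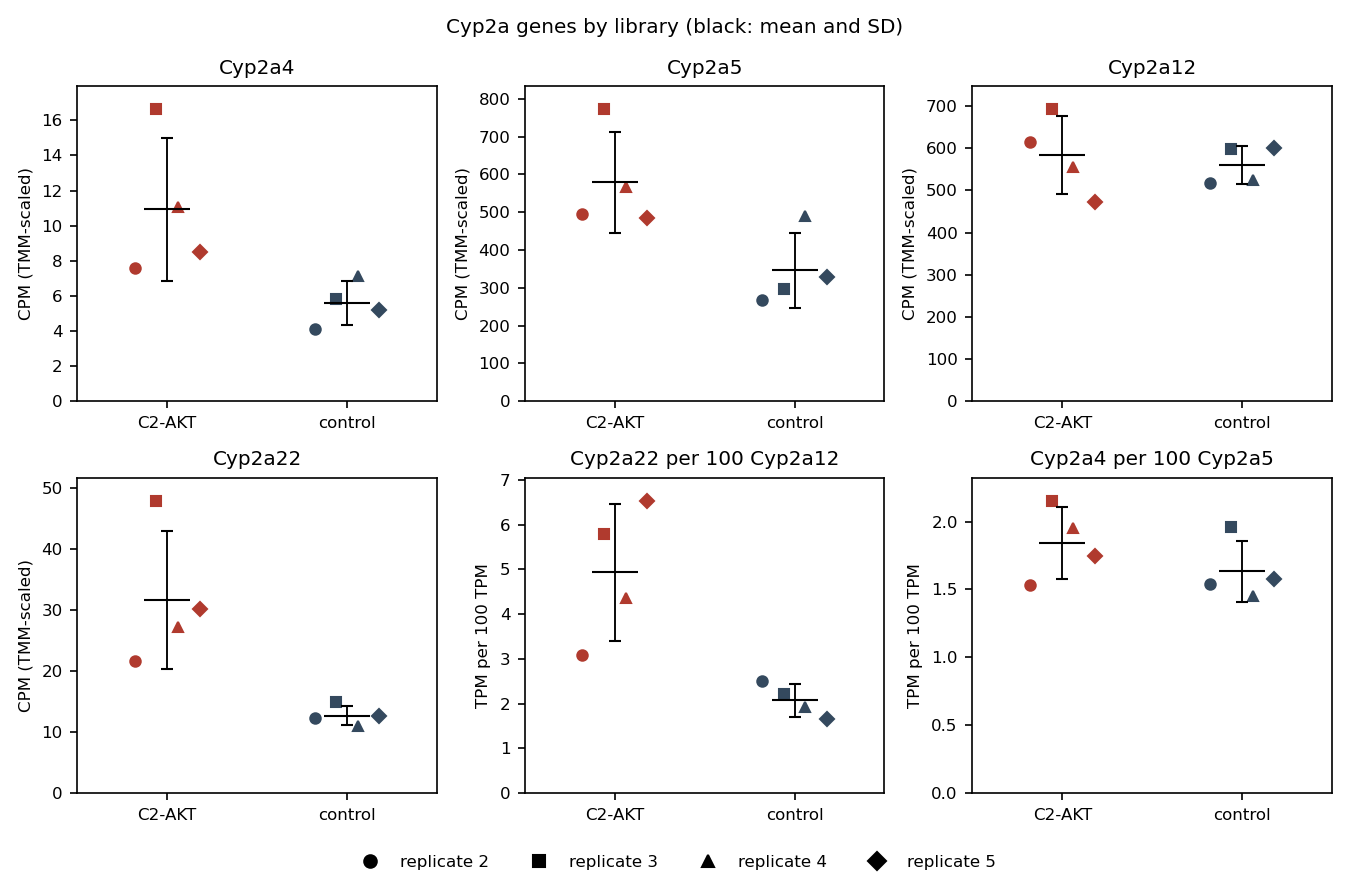
TMM-scaled CPM of the 4 Cyp2a genes by library, and the ratios Cyp2a22 to Cyp2a12 and Cyp2a4 to Cyp2a5 in TPM per 100 TPM, with C2-AKT left of control and marker shapes for replicate numbers. Black marks are the mean and SD of 4 libraries. Cyp2a22 lies at 21.6 to 47.8 CPM in C2-AKT and 11.0 to 14.9 CPM in control livers, while the Cyp2a12 groups overlap.

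The Cyp2b genes lie beside the Cyp2a genes on chromosome 7, and 3 of 5 were tested. Cyp2b9, a steroid hydroxylase with higher levels in females, was the most abundant. It measured 183, 336, 246 and 369 CPM in C2-AKT replicates 2 to 5, against 142, 162, 71.0 and 241 CPM in control replicates 2 to 5. Control replicate 5 lay above the lowest C2-AKT library. This gave a log2 fold change of 0.88 ± 0.34 (SE; unadjusted p = 0.0259, edgeR adjusted p = 0.898).

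Cyp2b13, another female-predominant copy, measured 1.70, 36.3, 2.73 and 4.67 CPM in C2-AKT livers, against 2.41, 6.06, 0.902 and 7.29 CPM in control livers. C2-AKT replicate 3 alone lay outside the control range above, and without it the log2 fold change was -0.46 in place of 1.45. Cyp2b10, the gene induced most strongly by CAR ligands such as phenobarbital, stayed near the limit of detection at 0.225 ± 0.158 CPM in C2-AKT and 0.313 ± 0.171 CPM in control livers (SD, n = 4 each).

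Of the 15 Cyp2c genes on chromosome 19, which oxidize arachidonic acid, retinoids and drugs, 13 were tested, and 9 of these had a positive and 4 a negative log2 fold change. Cyp2c70, which makes the muricholic acids of mouse bile, measured 189, 113, 100 and 89.8 CPM in C2-AKT replicates 2 to 5, against 162, 309, 198 and 272 CPM in control replicates 2 to 5. C2-AKT replicate 2 lay inside the control range and the other 3 below it. This gave a log2 fold change of -0.94 ± 0.27 (SE; unadjusted p = 0.00556, edgeR adjusted p = 0.760). Cyp2c55 was low throughout, at 0.587 ± 0.118 CPM in C2-AKT and 1.91 ± 1.77 CPM in control livers (SD, n = 4 each; unadjusted p = 0.0170, edgeR adjusted p = 0.846). Control replicate 4 alone stood at 4.45 CPM, while control replicate 2, at 0.414 CPM, was the lowest of the 8. Without control replicate 4 the log2 fold change of Cyp2c55 was -0.86 in place of -1.71, with an unadjusted p of 0.0829 in edgeR.

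In the positive direction, Cyp2c37 averaged 353 ± 40.4 CPM in C2-AKT and 256 ± 76.4 CPM in control livers (log2 fold change 0.46, unadjusted p = 0.0368, edgeR adjusted p = 0.944). Cyp2c38 averaged 68.9 ± 16.0 CPM in C2-AKT and 44.8 ± 13.5 CPM in control livers (log2 fold change 0.62, unadjusted p = 0.0268, edgeR adjusted p = 0.899). Both groups of libraries overlapped for each. Cyp2c29, Cyp2c50 and Cyp2c67, the other copies among the 15 most abundant members, had log2 fold changes of -0.13, 0.24 and 0.22. Copies of this cluster are hard to separate: 35.4% of the 100-base windows of Cyp2c69 and 34.4% of those of Cyp2c40 occurred in another gene, and Cyp2c69 stood at 47.6 to 56.3 TPM per 100 TPM of Cyp2c40 in all 8 libraries.

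All 9 Cyp2d genes on chromosome 15 were tested. Cyp2d40 measured 58.6, 55.5, 45.6 and 60.0 CPM in C2-AKT replicates 2 to 5, against 80.2, 66.6, 62.8 and 93.6 CPM in control replicates 2 to 5. The highest C2-AKT library lay just below the lowest control library. The log2 fold change was -0.47 ± 0.14 (SE; unadjusted p = 0.00824, edgeR adjusted p = 0.779), and a negative sign was found in all 23 alternatives. Cyp2d12, a less abundant copy, averaged 10.2 ± 3.47 CPM in C2-AKT and 14.1 ± 0.642 CPM in control livers (SD, n = 4 each; log2 fold change -0.46, unadjusted p = 0.0449, edgeR adjusted p = 0.956). C2-AKT replicate 2 lay above every control library for Cyp2d12.

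Cyp2d9, the most abundant copy, measured 1352, 861, 864 and 588 CPM in C2-AKT livers, against 1177, 1115, 1162 and 1150 CPM in control livers. C2-AKT replicate 2 lay above all control libraries and the other 3 below them (log2 fold change -0.33, 95% interval -0.80 to 0.15). Cyp2d26 and Cyp2d10, the other copies among the 15 most abundant members, had log2 fold changes of -0.01 and -0.03, and both signs turned in some alternatives. Cyp2d11 followed Cyp2d10 at 3.29 to 3.54 TPM per 100 TPM in every library.

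**Figure D4:**
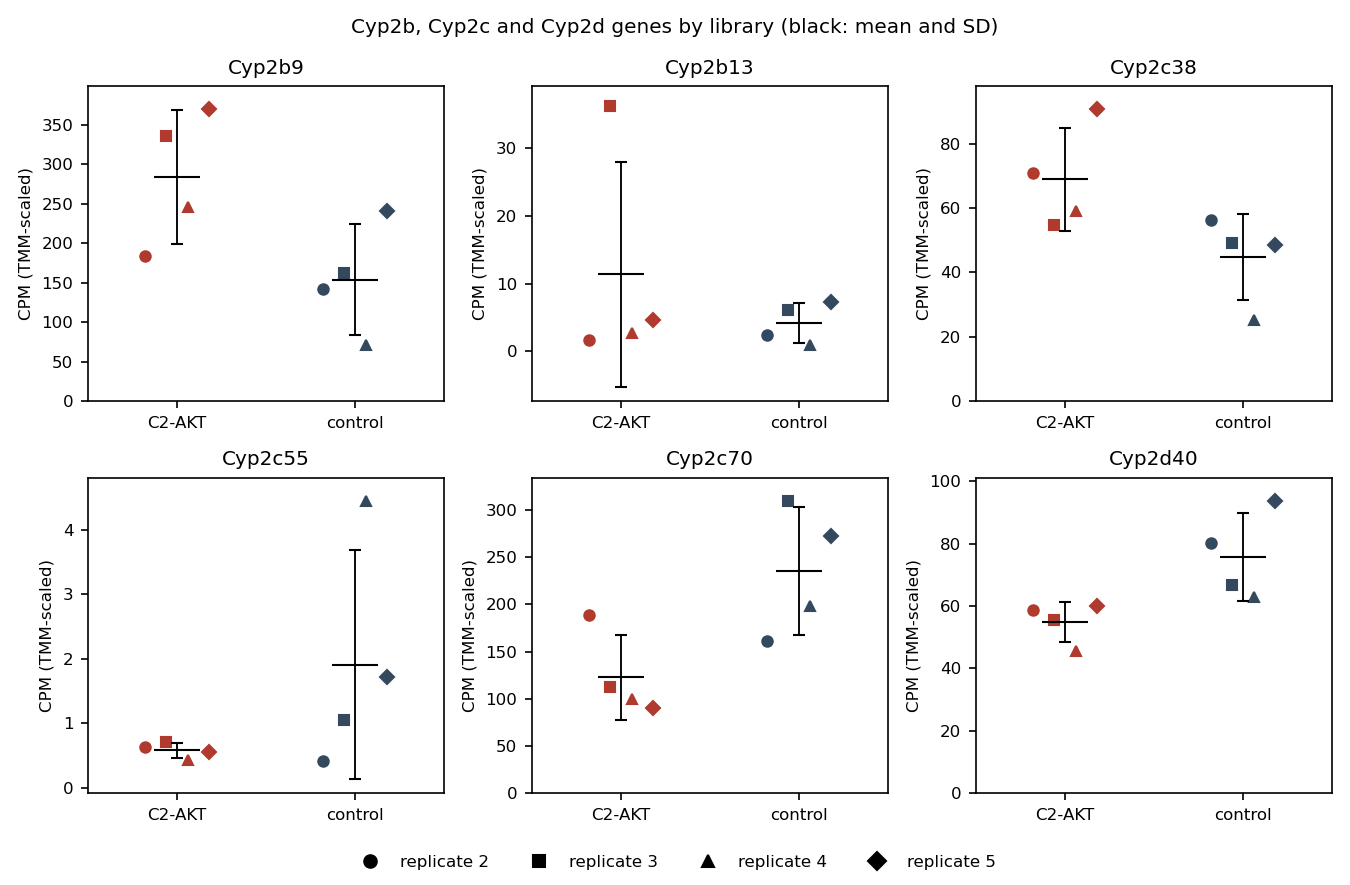
TMM-scaled CPM of Cyp2b9, Cyp2b13, Cyp2c38, Cyp2c55, Cyp2c70 and Cyp2d40 by library, with C2-AKT left of control, marker shapes for replicate numbers, and black marks for the mean and SD of 4 libraries. Cyp2d40 is the one gene here whose groups do not overlap, and the mean of Cyp2b13 in C2-AKT livers rests on replicate 3 at 36.3 CPM.

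The Cyp3a genes on chromosome 5, which oxidize a large share of drugs as well as steroids and bile acids, varied widely among the control livers. Cyp3a11 measured 879, 707, 430 and 958 CPM in C2-AKT replicates 2 to 5, against 489, 731, 2635 and 2133 CPM in control replicates 2 to 5. Control replicates 4 and 5 lay far above all other libraries, and control replicates 2 and 3 lay within the C2-AKT range. The log2 fold change was -1.01 ± 0.49 (SE; 95% interval -2.11 to 0.09; unadjusted p = 0.0674, edgeR adjusted p = 0.994).

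The same 2 control libraries were the highest for Cyp3a25, Cyp3a44 and Cyp3a59. Cyp3a25 averaged 365 ± 44.4 CPM in C2-AKT and 573 ± 263 CPM in control livers (SD, n = 4 each; unadjusted p = 0.0432, edgeR adjusted p = 0.954). Cyp3a59 measured 19.6, 27.2, 14.6 and 19.4 CPM in C2-AKT livers, against 18.5, 23.7, 135 and 43.3 CPM in control livers (unadjusted p = 0.0259, edgeR adjusted p = 0.898). Control replicate 4 alone carried most of that difference in means. Without it, the log2 fold change was -0.59 for Cyp3a11 and -0.50 in place of -1.45 for Cyp3a59, and the unadjusted p of all 5 tested Cyp3a genes was above 0.05.

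Cyp3a44, a female-predominant copy, averaged 6.97 ± 2.43 CPM in C2-AKT and 14.8 ± 9.47 CPM in control livers (SD, n = 4 each; unadjusted p = 0.0391, edgeR adjusted p = 0.952). It stood at 0.923 to 1.21 TPM per 100 TPM of Cyp3a11 in all 8 libraries. Of its 100-base windows 5.37% occurred in another gene, most often in the pseudogene Cyp3a63-ps (2.58%), while 0.101% of the windows of Cyp3a11 occurred in Cyp3a44. Cyp3a13, a copy that lies apart from the cluster on chromosome 5 (137892933 to 137925610), measured 193, 173, 135 and 240 CPM in C2-AKT livers, against 216, 176, 172 and 300 CPM in control livers. Control replicate 4, the highest library for Cyp3a11, was the lowest control library for Cyp3a13. The subfamily summed to 1321 ± 297 CPM in C2-AKT and 2356 ± 1372 CPM in control livers (SD, n = 4 each), with overlap and a log2 ratio of -0.84. In TPM the log2 ratio was -0.86, and -0.47 without control replicate 4.

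**Figure D5:**
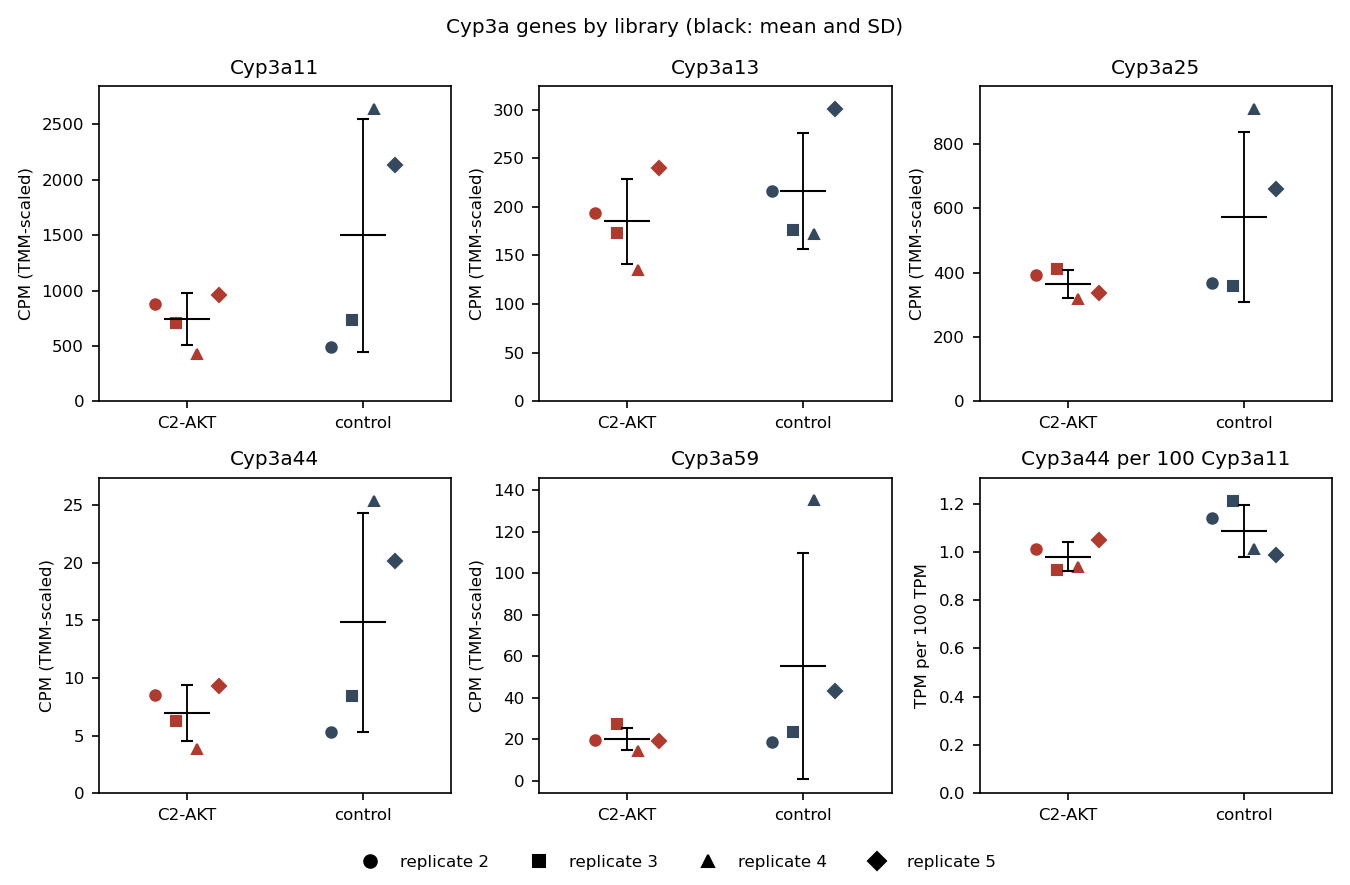
TMM-scaled CPM of the 5 tested Cyp3a genes by library, and Cyp3a44 in TPM per 100 TPM of Cyp3a11, with C2-AKT left of control and marker shapes for replicate numbers. Black marks are the mean and SD of 4 libraries. Control replicates 4 and 5 reach 2635 and 2133 CPM for Cyp3a11, against at most 958 CPM in C2-AKT livers.

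The Cyp1 genes, classic targets of AHR, had differences within their spread. Cyp1a2, which is constitutive in liver and metabolizes caffeine, measured 206, 340, 282 and 175 CPM in C2-AKT livers, against 250, 263, 376 and 150 CPM in control livers (log2 fold change -0.05, 95% interval -0.67 to 0.57). The groups overlapped almost completely. Cyp1a1, the inducible form, averaged 0.595 ± 0.285 CPM in C2-AKT and 0.606 ± 0.110 CPM in control livers, and Cyp1b1, mostly expressed outside hepatocytes, 0.580 ± 0.349 CPM in C2-AKT and 0.355 ± 0.131 CPM in control livers (SD, n = 4 each). Their 95% intervals, -0.79 to 0.76 and -0.51 to 1.88 on the log2 scale, were wide at these low counts.

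In the remaining subfamilies no tested member had an unadjusted p under 0.05 with all libraries. Cyp2f2 averaged 855 ± 217 CPM in C2-AKT and 899 ± 117 CPM in control livers, with C2-AKT replicate 5 lowest at 547 CPM. Cyp2j5, an arachidonic acid epoxygenase, averaged 705 ± 58.3 CPM in C2-AKT and 691 ± 75.3 CPM in control livers (SD, n = 4 each; log2 fold change 0.03, 95% interval -0.23 to 0.29). Cyp2r1, a vitamin D hydroxylase, had a log2 fold change of 0.30 (95% interval -0.07 to 0.68) and Cyp2u1, a fatty acid hydroxylase, -0.27 (-0.75 to 0.21). For Cyp2r1 only control replicate 5, at 8.88 CPM, lay within the C2-AKT range of 7.47 to 9.02 CPM, and the other control libraries lay below it. Without control replicate 5 its log2 fold change was 0.48 (unadjusted p = 0.00414, edgeR adjusted p = 0.484). With any other library left out it was 0.19 to 0.34, with an unadjusted edgeR p of 0.0961 to 0.253. Cyp2g1 and Cyp2s1, mainly enzymes of other epithelia, stayed below 1 CPM in every library, with log2 fold changes of 0.51 and -0.14. The 12 tested members not named by the rule had log2 fold changes of -0.04 to 1.55, the highest for Cyp2d34 with no count in 4 of the 8 libraries, and unadjusted p-values of 0.0796 to 0.958.

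Lists of genes that act with these enzymes gave no called gene in edgeR. Of the 11 tested receptors and partners, 4 had a positive and 7 a negative log2 fold change (median -0.16). Nr0b2, the corepressor SHP, had the smallest p (12.3 ± 4.79 CPM in C2-AKT and 25.1 ± 5.32 CPM in control livers, SD, n = 4 each; log2 fold change -1.03, unadjusted p = 0.00650, edgeR adjusted p = 0.762), followed by Onecut1 (1.27, edgeR adjusted p = 0.995). Among 8 electron transfer partners the median was -0.05, and Cyb5b, an outer-mitochondrial cytochrome b5, had the smallest p (438 ± 46.7 CPM in C2-AKT and 316 ± 47.8 CPM in control livers; unadjusted p = 0.00624, edgeR adjusted p = 0.762), followed by Cyb5a (log2 fold change -0.14). Among 12 genes of heme synthesis and breakdown the median was -0.10, and Alas1, the rate-limiting enzyme of heme synthesis, averaged 957 ± 114 CPM in C2-AKT and 619 ± 297 CPM in control livers (unadjusted p = 0.0436, edgeR adjusted p = 0.954), followed by Ppox (log2 fold change -0.22).

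The 5 tested AHR targets outside the P450s were all positive, with a median of 0.15 and none at an unadjusted p under 0.05 (Ugt1a6a 0.15, Gsta1 0.75). The 14 targets of CAR and PXR had a median of -0.02, with 1 member each way at an unadjusted p under 0.05 (Ces2a -0.66, Alas1 0.63). The 12 pericentral genes outside the P450s had a median of 0.04 (Lect2 0.20, Tbx3 -0.39), and the 12 periportal ones a median of 0.06 (Cdh1 -0.46, Aldh1b1 0.32), with no gene at an unadjusted p under 0.05 in either list. The 9 pericentral P450 members, all tested, had a median of 0.12, with 5 positive and 4 negative. All values are log2 fold changes.

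Of 9 members with higher levels in females, 6 were tested, with 5 positive and 1 negative log2 fold change and a median of 0.53. Cyp2a4 and Cyp2b9, positive, and Cyp3a44, negative, were those at an unadjusted p under 0.05. The positive value of Cyp2b13 rests on C2-AKT replicate 3, without which its log2 fold change was -0.46. Reads of Cyp2a4 may be shared with Cyp2a5. Of the 100-base windows of Cyp2c40 and Cyp2c69, both positive, 34.4% and 35.4% occurred in another gene, so their values may not be independent. The 8 male-predominant genes, of which Cyp2d9 is the one member, were all negative, with a median of -0.68 and none at an unadjusted p under 0.05 (Cyp4a12a -0.82, unadjusted p = 0.0511; Mup20 -0.58, unadjusted p = 0.0703). The groups overlapped for each of the 8. Their summed level was 1570 to 5020 CPM of all counts in C2-AKT and 4430 to 6030 CPM in control libraries. On that scale C2-AKT replicate 5 sits lower for liver RNA in general. For Cyp2d9, C2-AKT replicate 2 lay above all control libraries. Whether these genes vary independently was not tested. Of the 9 female-predominant genes outside the P450s, 6 were tested and 5 were positive (median 0.59), led by Abcd2 (log2 fold change 0.72 ± 0.10, edgeR adjusted p = 0.0738) and Fmo2 (0.46). The median over all genes tested was -0.01.

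No tested marker of another cell type was called. Tested were 2 of 10 acinar, 2 of 6 intestinal, 4 of 8 adipocyte and 0 of 6 islet markers. The rest of these lists could not be called. The summed markers of cholangiocytes were 24.5 to 38.6 CPM of all counts in C2-AKT and 25.5 to 44.5 CPM in control libraries. Those of stellate cells were 277 to 376 CPM in C2-AKT and 274 to 388 CPM in control libraries, and those of endothelium 254 to 369 CPM in C2-AKT and 232 to 315 CPM in control libraries. Macrophage markers, which include those of Kupffer cells, the macrophages of liver, summed to 236 to 315 CPM in C2-AKT and 270 to 363 CPM in control libraries. For lymphocytes the range was 13.1 to 17.1 CPM in C2-AKT and 12.2 to 17.1 CPM in control libraries. Adipocyte markers summed to 16.5 to 40.7 CPM in C2-AKT and 35.9 to 79.3 CPM in control libraries. Of the 4 tested, 2 were lower at an unadjusted edgeR p under 0.05. They were Cidea (log2 fold change -3.44, edgeR adjusted p = 0.483) and Cfd (-1.33, edgeR adjusted p = 0.930). Fabp4 stood at -0.32 and Adrb3 at 0.02. Intestinal markers summed to 96.2 to 155 CPM in C2-AKT and 138 to 142 CPM in control libraries, with Sis and Alpi at 0 in all 8. In bulk liver, fewer cells that express a P450 and less of its RNA per cell cannot be told apart.

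Motif searches in the RefSeq windows described the members further. The nuclear receptor half-site AGGTCA, searched on both strands, was in 18 of 52 members (34.6%) and in 18.1% of all genes, and both Cyp2a4 and Cyp2a5 held it while Cyp2a12 and Cyp2a22 did not. The forkhead motif TGTTTAC was in 8 of 52 (15.4%, against 4.05% of all genes), among them Cyp3a11 and Cyp3a44. The AHR core GCGTG was in 9 of 52 (17.3%, against 35.2%), among them Cyp1a1 and Cyp1b1, and the STAT pattern TTCNNNGAA in 2 of 52 (3.85%, against 9.55%). Near-identical copies share these letters, and a match is not a binding site.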

How the data were processed

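The table the authors deposited holds, for every gene in each library, 3 values: estimated counts, FPKM and TPM, per the file headers. The deposited counts are whole numbers and were used unrounded. The submitters' processing notes name StringTie 2.1.3b, HISAT2 2.1.0, Trimmomatic and bcl2fastq 2.20.0, with the build GRCm38 (mm10). Their settings, the strand and the handling of multiply mapped reads were not given in the labels or notes, so values of single near-identical copies are uncertain. FPKM and TPM were scaled by the authors to transcript length and library size.

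Genes were kept with edgeR 4.0.16's filterByExpr, scaled by TMM and tested with its quasi-likelihood test without covariates (two-sided, threshold 0.05). The SE is the log2 fold change over the square root of F. Limma 3.58.1 (log2 of FPKM or TPM plus 1 or 0.1; voom) and DESeq2 1.42.0 were alternatives, as were scalings, filters, a replicate block, title endings and each library left out. The test was checked on simulated data. Named members are those with an unadjusted p under 0.05 or no overlap, the most abundant of each subfamily, the 15 most abundant and 18 fixed by name, and for other lists the 2 smallest p. Members and lists were chosen with earlier results of these data known. Limits for no count are 3 counts per library and cover counting error only. The RefSeq (GRCm38.p6) and GENCODE tables are of the same build.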

Additional observations from a re-analysis of the deposited data

Results flagged for a closer look

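Among 68 sets of 4 libraries (34 named members in each group), 2 held a library far from the other 3, where chance alone gives about 1 in 20. Cyp2b13 stood at 36.3 CPM in C2-AKT replicate 3, against 1.70 to 4.67 CPM in the other C2-AKT libraries. Cyp2j5 stood at 804 CPM in control replicate 5, against 641 to 662 CPM in the other control libraries.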

How the results depend on the processing

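Genes called numbered 4 with all libraries, 57 with DESeq2, 2 with limma on log2(FPKM + 1) without a filter, 17 among titles ending in "_1" and 1 to 17 when 1 library was left out. Members called numbered 0, 1 with DESeq2 and 0 to 1 when 1 library was left out, in each case Cyp2a22, whose log2 fold change was then 1.32 and 1.46. Members at an unadjusted p under 0.05 with lower values numbered 7, 9 without a count filter and 8 with DESeq2. They numbered 3 with limma-voom, log2(FPKM + 1), log2(FPKM + 0.1) and log2(TPM + 1), 3 with a replicate block and 4 among titles ending in "_1". When 1 library was left out they numbered 3 to 7. Those with higher values numbered 6, and 4 to 9 in the alternatives. These counts were added after seeing the data. The replicate block left 4 genes and 0 members called. The deviations of same-numbered libraries correlated at -0.13 to 0.07 and 0 of 8 libraries correlated best with their own number, so the numbers were not taken as pairs.

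The log2 fold change of 10 named members turned sign in at least 1 alternative. With 1 library left out it ran from -0.39 to 0.15 for Cyp1a1, -0.24 to 0.18 for Cyp1a2, -0.03 to 0.15 for Cyp2a12, -0.46 to 1.87 for Cyp2b13, -0.03 to 0.39 for Cyp2c67, -0.09 to 0.06 for Cyp2d10, -0.07 to 0.11 for Cyp2d26, -0.17 to 0.09 for Cyp2f2, -0.03 to 0.11 for Cyp2j5 and -0.50 to 0.53 for Cyp2s1. With library totals alone it was 0.02 for Cyp1a1, 0.00 for Cyp2d10 and 0.03 for Cyp2d26. With the title ending as a term it was 0.12 for Cyp1a1, 0.19 for Cyp1a2, 0.05 for Cyp2d10, 0.10 for Cyp2f2 and 0.15 for Cyp2s1. Among "_1" titles it was 0.34 for Cyp1a1, 0.07 for Cyp1a2, 0.02 for Cyp2d10, 0.08 for Cyp2d26 and 0.03 for Cyp2f2. Cyp2d26 was at 0.00 with limma-voom and the replicate block, and Cyp2s1 at 0.31 and 0.13. The cause was not tested. The summed subfamily levels moved by less than the spread within groups in FPKM, in CPM and with each library left out. Leaving out 1 library moves a group mean by little against that spread, so this part could hardly fail. It does not show that the levels are stable. Cyp1b, Cyp2g, Cyp2s, Cyp2t and Cyp2w, low or at 0, were not part of that check. Depth limits members under 1 CPM.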
